A study of Mus musculus with 10 samples.

Results

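The genes described are 10 that encode plasma proteins of the acute-phase response: the serum amyloid A genes Saa1, Saa2 and Saa3, the orosomucoid genes Orm1 and Orm2, and Lcn2, Hp, Hpx, Lrg1 and Serpina3n. They were taken as the probe sets that the array's annotation assigns to one of these names alone. That gave 11 probe sets of 45101 on the array, and 10 genes of 18194 named. The list was chosen by the signals and the 28-month over 4-month ratios of these same arrays, so the levels and ratios below are a description with no test.

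The mice were males of ICR, an outbred stock, kept 1 to a cage in a specific-pathogen free unit on the AIN-93 diet, and their distal colon, ileum, jejunum, spleen and liver were taken. The younger mice were obtained at 2 months of age and sampled at 4 months, the older ones obtained at 8 months and sampled at 28 months, and the labels name no other treatment. Per tissue, equal amounts of RNA from 6 mice at 4 months or from 9 mice at 28 months were pooled and read on 1 Affymetrix whole-genome mouse array, which reads a transcript through a set of short probes. Each of the 10 groups is therefore 1 pooled array, no difference had a replicate check, and the number of arrays limits the precision. A pool gives the mean of its mice, and a gene raised strongly in a few of them cannot be told apart from one raised in all.

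The acute-phase response is the change in blood proteins that follows infection, injury or inflammation. Cytokines, above all interleukin-6 and interleukin-1, act on hepatocytes through STAT3, NF-kB and C/EBP factors, which raise the transcription of positive acute-phase genes. The liver is the main source of these proteins, but intestinal epithelium makes serum amyloid A, and granulocytes, macrophages and fat cells make several of them too.

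The genes lie on 6 chromosomes, and those of a family lie side by side. RefSeq (GRCm38.p6) places Saa3, Saa4, Saa1 and Saa2 in that order on chromosome 7, and Orm1, Orm3 and Orm2 on chromosome 4. Hpx lies elsewhere on chromosome 7, Lcn2 on chromosome 2, Hp on chromosome 8, Serpina3n on chromosome 12 and Lrg1 on chromosome 17. RefSeq promoter windows were at hand for 8 of the 10 genes. The 250 bases before the transcript start are shown for the 4 genes with the largest liver ratios, Lcn2, Orm2, Saa2 and Saa1, and for Saa3, the serum amyloid A gene that behaved differently in the colon. The windows are chr7:46742981-46743230 on the minus strand for Saa1, chr7:46751583-46751832 on the plus strand for Saa2, chr7:46715677-46715926 on the minus strand for Saa3, chr4:63362199-63362448 on the plus strand for Orm2 and chr2:32387740-32387989 on the minus strand for Lcn2. Each is written 5′ to 3′ on the gene's own strand, and capitals mark matches to the motifs named after them.
Saa1: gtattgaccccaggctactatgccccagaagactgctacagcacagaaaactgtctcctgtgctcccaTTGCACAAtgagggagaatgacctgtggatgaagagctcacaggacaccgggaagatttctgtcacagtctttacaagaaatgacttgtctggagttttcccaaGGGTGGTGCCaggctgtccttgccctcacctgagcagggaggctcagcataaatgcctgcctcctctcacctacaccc
Saa2: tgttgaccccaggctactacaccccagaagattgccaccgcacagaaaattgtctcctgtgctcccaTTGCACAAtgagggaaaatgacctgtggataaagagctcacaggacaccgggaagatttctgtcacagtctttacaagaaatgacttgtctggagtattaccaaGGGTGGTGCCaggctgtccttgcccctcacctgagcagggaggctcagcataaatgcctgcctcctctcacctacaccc
Saa3: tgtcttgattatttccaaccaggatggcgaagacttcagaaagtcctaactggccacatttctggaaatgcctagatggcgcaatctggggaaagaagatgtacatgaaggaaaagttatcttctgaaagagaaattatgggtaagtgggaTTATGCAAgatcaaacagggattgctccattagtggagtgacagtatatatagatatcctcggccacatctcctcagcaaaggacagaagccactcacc
Orm2: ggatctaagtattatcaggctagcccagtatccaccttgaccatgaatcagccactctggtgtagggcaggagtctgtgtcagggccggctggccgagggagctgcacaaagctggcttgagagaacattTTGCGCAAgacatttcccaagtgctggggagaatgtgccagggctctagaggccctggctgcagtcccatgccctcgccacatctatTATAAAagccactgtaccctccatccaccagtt
Lcn2: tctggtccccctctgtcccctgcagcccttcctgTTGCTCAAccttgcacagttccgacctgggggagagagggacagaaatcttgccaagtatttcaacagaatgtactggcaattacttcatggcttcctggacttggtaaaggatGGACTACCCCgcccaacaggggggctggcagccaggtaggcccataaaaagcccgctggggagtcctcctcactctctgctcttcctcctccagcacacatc

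The motifs searched were a C/EBP core, TTGCNNAA, a broad NF-kB pattern of GGG and CC with any 5 bases between them, and a STAT pattern, TTCNNNGAA, each on both strands, and the TATA box letters TATAAA on the gene's strand. A C/EBP match was in all 5 windows shown and in 6 of the 8 at hand, against 9.56% of 32851 windows of the same length over all genes. The match TTGCACAA began 182 bases before the start in Saa1 and 183 bases before it in Saa2. It read TTATGCAA in Saa3, TTGCGCAA in Orm2 and TTGCTCAA in Lcn2. An NF-kB match was in 5 of the 8 windows against 45.8% of all windows, and among those shown it was in Saa1, Saa2 and Lcn2. The STAT letters were in 0 of the 8 windows against 7.02%, and TATAAA was in 1, that of Orm2, against 7.59%. No 2 of these matches overlapped in the windows shown. The Saa1 and Saa2 windows are near copies, with 238 identical bases over 251 aligned positions (94.8%), and their matches are therefore not independent. The Saa3 window shared 48.2% with that of Saa1, which is within the 47.4% to 52.9% found between unrelated windows of this set. A match describes the letters only.

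Signals are given in units after each array was scaled to a trimmed mean of 500, and signals below 111 units, the median of all signals, were raised to that floor before a ratio was taken. Genes above the floor at either age are called measured in that tissue, and a gene is called higher or lower from 2-fold. Where 1 age lay below the floor, the fold is a lower bound. A summed signal of a marker list adds the signals of all its named genes, those below the floor included. All 10 genes were measured in liver, 5 in spleen, 4 in jejunum, 7 in ileum and 6 in distal colon. Tissue labels were checked with lists of markers: Alb, serum albumin, gave 51037 and 50608 units in liver at 4 and 28 months, and the 8 intestinal epithelium markers summed to 76761 to 113825 units in the gut and to 2159 units or less in liver and spleen. Between probe sets of the same gene, log2 ratios had a median SD of 0.11 to 0.14 per tissue. The 28-month arrays of the 3 gut segments were titled in another form and numbered apart from the other 7. Whether they were prepared apart is not stated, and in the gut this cannot be told apart from age.

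**Figure D1:**
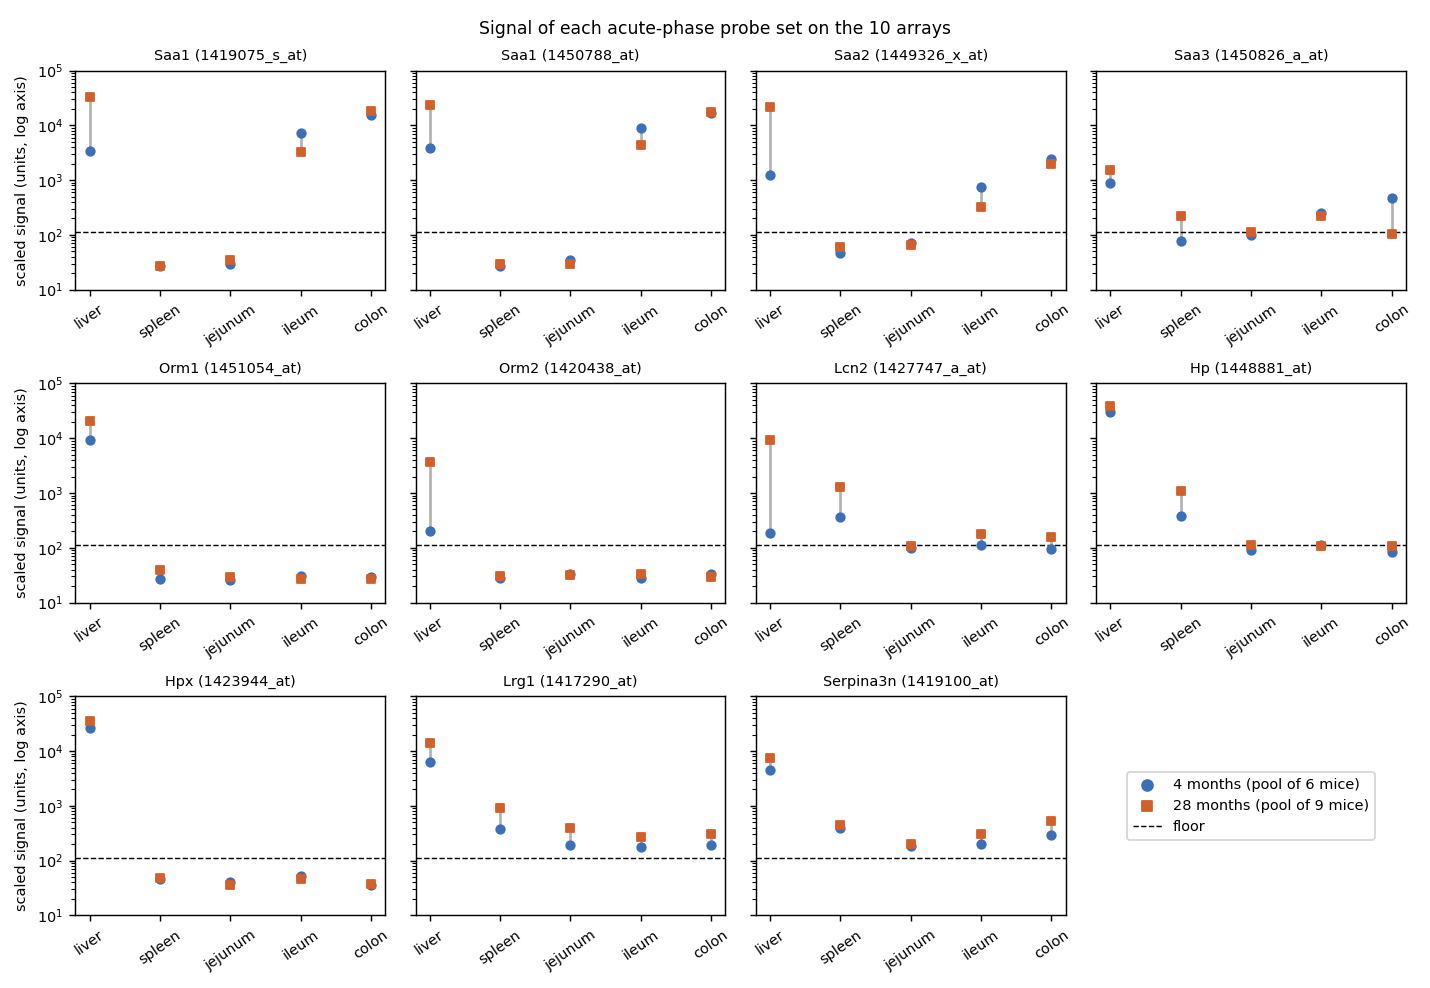
Scaled signal of the 11 probe sets (log axis, units) in 5 tissues, 1 panel per probe set; circles are the pooled array at 4 months, squares the one at 28 months, and the dashed line is the floor of 111 units. Orm1, Orm2 and Hpx stand above the floor in liver alone, Saa1 and Saa2 in liver, ileum and distal colon, and Lrg1 and Serpina3n in all 5 tissues.

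The first comparison asked how these genes differed between the ages in the liver. All 10 had higher signal at 28 months, and 6 were 2-fold or more higher, against 1.28% of the 12033 genes measured in liver; 0 were 2-fold or more lower, against 0.158%. The 6 were Lcn2, Orm2, Saa2, Saa1, Orm1 and Lrg1. The median log2 ratio of the 10 was 1.15, and that of all measured genes was -0.02. Because the ratios entered the choice of the list, this share carries no weight of its own.

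Lcn2 encodes lipocalin 2, which binds bacterial siderophores and so withholds iron. Its liver signal was 188 units at 4 months and 9366 units at 28 months, 49.8-fold higher (log2 ratio 5.64, or 4.28 with the floor at percentile 75). It held rank 1 among the ratios of all genes measured in liver. At 4 months the liver signal lay below that of the spleen, at 372 units, and at 28 months it was 7.29-fold above the spleen's 1285 units, so the order of the tissues turned.

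Orosomucoids, also called alpha-1-acid glycoproteins, are lipocalin-type carriers of lipids and drugs in plasma. Orm2 went from 201 to 3747 units, 18.7-fold higher and rank 2 in liver (log2 ratio 4.22, or 2.96 with that higher floor). Orm1, its neighbour, was already at 9380 units at 4 months and was at 20942 units at 28 months, 2.23-fold higher and rank 104. Orm3, which lies between them and was named here after its values were seen, went from 172 to 425 units, 2.46-fold higher. Orm2 therefore moved from near the floor, while Orm1 moved from a high level with a log2 ratio of 1.16.

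Serum amyloid A proteins are small apolipoproteins that join high-density lipoprotein during inflammation. Saa2 went from 1243 to 21785 units, 17.5-fold higher and rank 3 in liver. Saa1, by the probe set whose annotated transcript is that of Saa1 in RefSeq, went from 3815 to 23992 units, 6.29-fold higher and rank 13. A second probe set annotated to Saa1 went from 3372 to 32579 units, 9.66-fold. Its annotated transcript is that of Saa2 in RefSeq, and its suffix marks it as able to read several transcripts, as does that of the Saa2 probe set. The 2 probe sets of Saa1 differed by 0.62 in log2 ratio in liver, more than the usual spread between probe sets, and the shares of Saa1 and Saa2 in these signals cannot be told apart.

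Saa3, which in mice is made mostly outside hepatocytes, went from 900 to 1543 units in liver, 1.71-fold, short of 2-fold. Saa4, the constitutive member of the cluster, went from 12172 to 14117 units, 1.16-fold. The 4 neighbouring genes thus had liver log2 ratios of 0.78 for Saa3, 0.21 for Saa4, 2.65 for Saa1 and 4.13 for Saa2.

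Lrg1 encodes a leucine-rich glycoprotein that modulates TGF-beta signalling in blood vessels, and its liver signal went from 6441 to 14277 units, 2.22-fold higher. Serpina3n, a secreted inhibitor of serine proteases such as granzyme B, went from 4542 to 7623 units, 1.68-fold. Haptoglobin and hemopexin clear free haemoglobin and haem from plasma. Hp went from 30339 to 38780 units, 1.28-fold, and Hpx from 26678 to 35432 units, 1.33-fold. Both were far above the floor at 4 months, and both ratios were above the all-gene median but short of 2-fold.

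**Figure D2:**
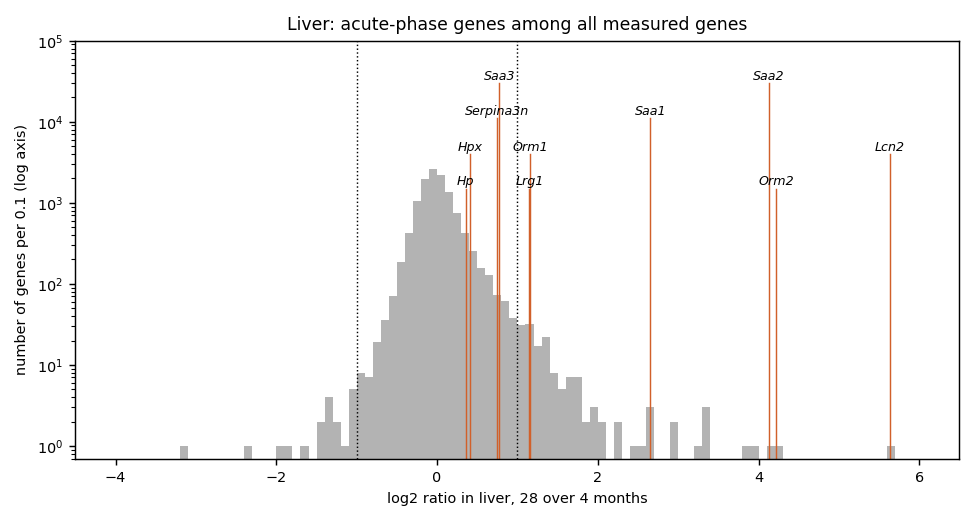
Histogram of the log2 ratio of 28 over 4 months for the 12033 genes measured in liver (bins of 0.1, log axis for the number of genes); lines mark the 10 acute-phase genes, their height serves only to separate the names, and dotted lines mark 2-fold. Lcn2 at 5.64, Orm2 at 4.22 and Saa2 at 4.13 lie at the far right, and Hp at 0.35 and Hpx at 0.41 are the lowest of the 10.

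Related genes were read in the same livers from lists written with earlier results of these arrays known. Of 25 other positive acute-phase genes, 22 were named alone by a probe set. Of these, 21 were measured in liver, 3 were 2-fold or more higher and 0 lower, with a median of 0.32. The metallothioneins Mt2 and Mt1, which bind zinc, were 3.94- and 3.10-fold higher, and Fgl1, a fibrinogen-like protein secreted by hepatocytes, was 2.63-fold higher. Cd14 and Lbp, which present bacterial lipopolysaccharide, had ratios of 0.85 and 0.84. Steap4, a metalloreductase, had a ratio of 0.81, and Apcs, serum amyloid P, one of 0.65. The fibrinogen chains Fga, Fgb and Fgg stood at 0.18, 0.06 and -0.00, and Crp, C-reactive protein, at -0.03. Hamp, the iron hormone hepcidin, stood at -0.34. The larger ratios were thus not shared by all positive acute-phase genes.

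Negative acute-phase genes are those that the liver turns down in inflammation. Of 13 measured, 0 were 2-fold or more lower and 0 higher, with a median of -0.01. They ranged from -0.27 for Serpina6, corticosteroid-binding globulin, to 0.55 for Fetub. Apoa4, an apolipoprotein, stood at 0.31, F12, a coagulation factor, at 0.25 and Alb at -0.01.

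Upstream genes were next. Il6 lay below the floor on all 10 arrays, and in liver it gave 24.6 and 27.8 units. Of 13 inducing cytokines, 11 were named alone by a probe set, and of these 4 were measured in liver and 0 passed 2-fold. Il1b, which encodes interleukin-1 beta, went from 186 to 262 units (0.49), and Tnf had a ratio of -0.29. Of 15 receptors and transducers measured in liver, 0 passed 2-fold. Stat3, the main transcription factor below interleukin-6, stood at 0.58, the tumour necrosis factor receptor Tnfrsf1b at 0.57, the interleukin-1 receptor Il1r1 at 0.55 and the leukaemia inhibitory factor receptor Lifr at -0.48. The interleukin-6 receptor chains Il6ra and Il6st stood at 0.44 and 0.29.

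Among 14 measured transcription factors and feedback genes 1 was 2-fold or more higher in liver. This was Socs3, a STAT3 target that damps the same pathway, which went from 859 to 1988 units, 2.31-fold. Cebpd and Cebpb, the C/EBP factors of the acute phase, stood at 0.80 and 0.44, and Nfkbiz, an NF-kB cofactor, at 0.57. Socs2, a growth hormone target, stood at -0.99. Of 15 measured partners and clearance receptors 2 were 2-fold or more higher in liver: Hmox1, the haem-degrading enzyme, 2.14-fold, and Fpr2, a receptor for serum amyloid A, 2.08-fold. Tgfbr2, a TGF-beta receptor, stood at 0.60, Tlr2, a pattern receptor, at 0.33 and Blvrb, a biliverdin reductase, at 0.18. Cd163, the receptor for haptoglobin bound to haemoglobin, stood at -0.18, Lrp1, which takes up hemopexin with haem, at 0.14, and Slc22a17, a receptor for lipocalin 2, at -0.06.

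Markers of cells other than hepatocytes were read beside these liver values. Of 14 granulocyte markers named on the array, 5 were above the floor in liver at 4 months and 10 at 28 months. All 14 summed to 1411 and 3986 units. Of the 10 measured, 4 were 2-fold or more higher. S100a8 and S100a9, abundant in neutrophils, were 6.21- and 4.17-fold higher, Ngp at least 2.15-fold and Prtn3 at least 10.2-fold. Cxcr2, Ltf, Mpo and Elane had log2 ratios of -0.01, 0.02, 0.10 and 0.15, and Camp and Csf3r of 0.36 and 0.78. Ltf and Mpo reached only 112 and 119 units at 28 months, just above the floor. Ctsg, Mmp8, Mmp9 and Fcnb lay below the floor at both ages. All 12 measured macrophage and Kupffer cell markers were above 0, with 4 past 2-fold, and the 13 named summed to 14934 and 29808 units. Marco, a scavenger receptor, was 3.56-fold higher, C1qb 2.98-fold, Lyz2 2.94-fold and Cd68 2.20-fold, and Clec4f, a Kupffer cell lectin, stood at 1.83-fold. Of 9 B and plasma cell markers named, 4 and 7 were above the floor in liver, and all 9 summed to 6163 and 10540 units. Sdc1 alone gave 5350 and 6534 of these units. Ms4a1, Cd79a and Cd79b lay near the floor, with log2 ratios of 0.07, 0.16 and 0.19, and Pax5 and Tnfrsf17 lay below it at both ages. Jchain was at least 13.9-fold and Mzb1 2.58-fold higher, and Igha went from 151 to 1581 units. Of 7 bile duct markers named, 3 and 4 were above the floor, and all 7 summed to 838 and 2424 units. Most of that rise was Tff3, a trefoil peptide, which went from 224 to 1712 units, 7.64-fold higher. Sox9 and Epcam stood at 1.28- and 1.19-fold and Krt19 at 1.11-fold or more, while Krt7, Cftr and Cldn4 lay below the floor at both ages. The 11 hepatocyte markers summed to 298272 and 289843 units, with a median ratio of -0.08. The part of these cells in the liver values of Lcn2, Lrg1, Hp and Saa3 was not tested. In bulk tissue, more cells of a type and more RNA per cell cannot be told apart.

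**Figure D3:**
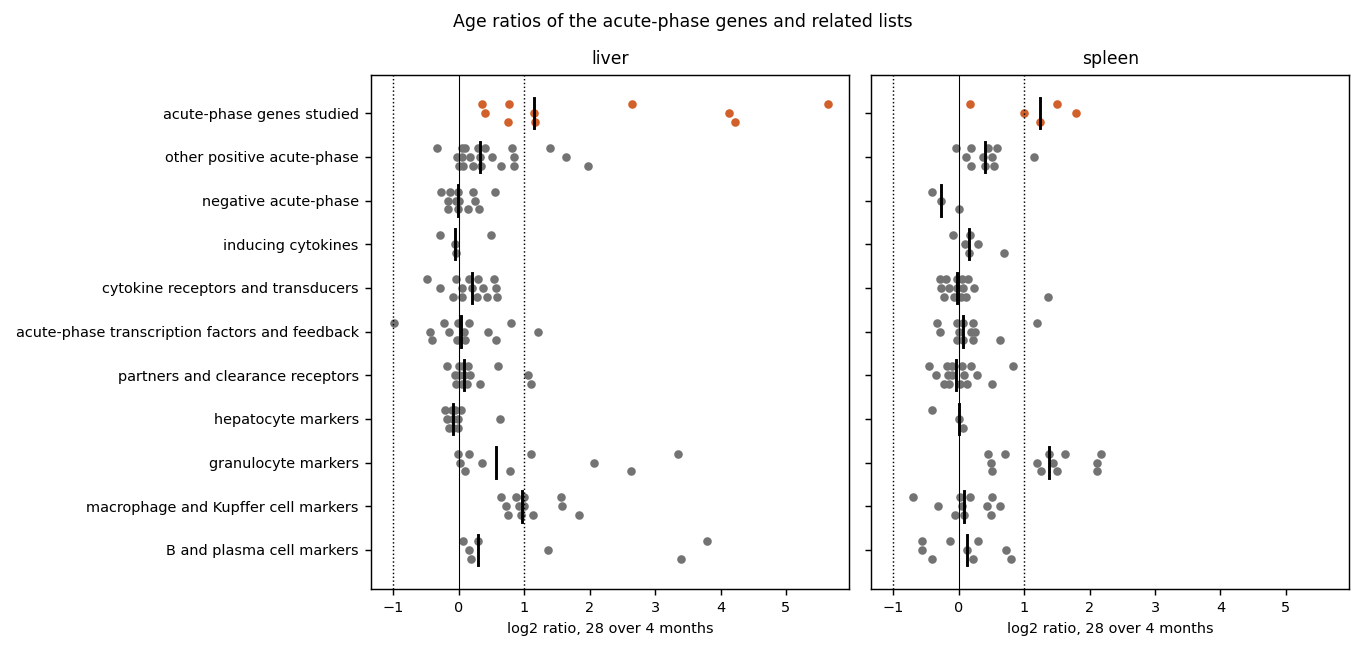
Log2 ratio of 28 over 4 months of each measured gene in liver and in spleen, for the acute-phase genes studied (top row) and 10 related lists; each point is a gene, black bars are medians and dotted lines mark 2-fold. In liver the studied genes had a median of 1.15 and hepatocyte markers one of -0.08, and in spleen granulocyte markers had a median of 1.39 beside 1.25 for the studied genes.

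The second comparison was made in the spleen, where 5 of the 10 genes were measured. Lcn2, Hp and Lrg1 were 2-fold or more higher at 28 months, against 0.544% of 11941 genes measured, and 0 were lower, against 0.394%. Lcn2 went from 372 to 1285 units, 3.45-fold higher and rank 12 in spleen. Hp went from 380 to 1082 units, 2.85-fold, while its liver ratio was 1.28-fold. Lrg1 went from 381 to 907 units, 2.38-fold (log2 ratio 1.25, or 0.92 with the floor at percentile 75, short of the threshold).

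Saa3 went from 78.7 units, below the floor, to 221 units in spleen, at least 1.99-fold and just short of the threshold. Serpina3n went from 396 to 447 units, 1.13-fold. Saa1, Saa2, Orm1, Orm2 and Hpx stayed below the floor in spleen at both ages, at 60.4 units or less. Of 11 hepatocyte markers, 3 were above the floor in spleen at 4 months and 2 at 28 months, and all 11 summed to 874 and 818 units.

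In the same spleens all 13 measured granulocyte markers were above 0 and 9 were 2-fold or more higher. The summed signal of the 14 named went from 17514 to 44434 units, and the median ratio of the 13 measured was 1.39. Prtn3, Mpo and Ltf, which encode granule proteins, were 4.52-, 4.33- and 2.83-fold higher, and Camp, the precursor of cathelicidin, 2.71-fold. Ctsg was at least 4.34-fold, Ngp 3.07-fold and Mmp8 2.39-fold higher. Elane, Mmp9, Csf3r and Cxcr2 were short of 2-fold, at 1.63-, 1.42-, 1.41- and 1.37-fold. S100a8 and S100a9 were 2.30- and 2.62-fold higher, and Fcnb lay below the floor at both ages. The part of these cells in the spleen ratios of Lcn2, Hp and Lrg1 was not tested. Socs3 went from 997 to 2284 units, 2.29-fold higher, Il1r2, a decoy receptor for interleukin-1, was 2.57-fold higher, and Il1b had a ratio of 0.69. Mt2 was 2.22-fold higher, and Fabp4, which fat cells and macrophages express, 2.07-fold. The macrophage list had a median of 0.08 in spleen with 0 of 11 past 2-fold.

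The third comparison concerned the gut, where Saa1 and Saa2 were lowest in jejunum and highest in distal colon at both ages. Saa1 gave 34.5 and 29.2 units in jejunum at 4 and 28 months, both below the floor. It gave 8928 and 4454 units in ileum and 17037 and 17389 units in distal colon. At 4 months the colon was the brightest of the 5 tissues for Saa1, 1.91-fold above the ileum, or 2.20-fold in the second probe set. At 28 months the liver was the brightest, 1.38-fold above the colon, or 1.80-fold in the second probe set.

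Saa2 followed the same order, with 72.6 and 65.9 units in jejunum, 764 and 324 in ileum and 2475 and 1952 in distal colon. At 28 months its liver signal was 11.2-fold above that of the colon. Saa3 stood at 98.9 and 113 units in jejunum, 246 and 217 in ileum and 464 and 104 in distal colon. Its colon signal was thus the highest of the gut at 4 months. At 28 months it lay below the floor and the jejunum signal only just above it, so the order of these segments cannot be told.

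**Figure D4:**
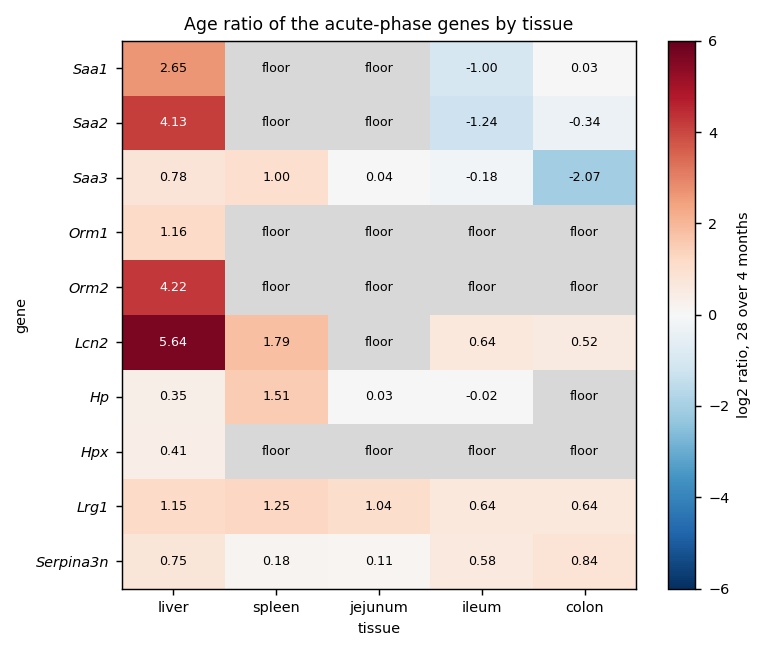
Log2 ratio of 28 over 4 months of the 10 genes (rows) in 5 tissues (columns); blue is lower and red higher at 28 months, and grey cells marked floor were below 111 units at both ages. Liver holds the largest ratios, Lrg1 is above 0.6 in all 5 tissues, and the negative values past 2-fold are those of Saa1 and Saa2 in ileum and Saa3 in distal colon.

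In the ileum, Saa1 and Saa2 were 2-fold or more lower at 28 months, against 1.66% of 12513 genes measured, and 0 of the 7 measured genes were 2-fold or more higher, against 0.847%. Saa2 was 2.35-fold lower (log2 ratio -1.24, or -0.67 with the floor at percentile 75). Saa1 was 2.00-fold lower in one probe set and 2.23-fold lower in the other, and the former lost the call under 2 of the scalings tried, with log2 ratios of -0.97 and -0.95. Lcn2 went from 114 to 178 units, Lrg1 from 175 to 273 units and Serpina3n from 205 to 307 units, with ratios of 0.64, 0.64 and 0.58. Genes that vary along the small intestine were read beside these values. Lct, the lactase of the upper small intestine, went from 14054 to 92.1 units in ileum and was also lower in jejunum, from 12629 to 3600 units, 3.51-fold. In ileum Fabp6, which carries bile acids in ileal cells, went from 20178 to 35831 units. Apoa4 was 5.86-fold lower, Apoc3 5.30-fold, Scarb1 4.28-fold and Cidec 2.67-fold, all genes of lipid handling. The part of the sampled position in the ratios of Saa1 and Saa2 was not tested. The 8 epithelium markers summed to 113825 and 109109 units in ileum.

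In the distal colon, Saa3 was 2-fold or more lower, against 0.493% of 12365 genes measured, and 0 of the 6 measured genes were 2-fold or more higher, against 0.51%. Saa3 went from 464 units to 104 units, below the floor, at least 4.19-fold lower; the call is lost where the floor is raised or probe sets reading several transcripts are dropped, as Saa3 is then not measured. Saa1 had a ratio of 0.03 there, the same as the all-gene median of 0.03, and one of 0.20 in its second probe set. Saa2 had one of -0.34, and all of these were short of 2-fold. The call of Saa3 was thus not shared by Saa1 or Saa2, whose shares in these signals cannot be told apart. Saa4 lay below the floor in distal colon at both ages. Serpina3n went from 300 to 537 units (0.84, or 0.16 with the floor at percentile 75), Lrg1 from 193 to 301 units (0.64), and Lcn2 from 93.8 units, below the floor, to 158 units.

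Other genes were read beside the Saa3 value. Socs3 went from 916 to 351 units in colon, 2.61-fold lower, and Mt2 and Mt1 were 2.27- and 2.05-fold lower, the opposite of their liver direction. Nfkbiz stood at -0.99. All 8 fibroblast markers were below 0 in colon, with a summed signal of 59498 and 39222 units, and Col1a1, a collagen chain, was 2.57-fold lower. Of 6 adipocyte markers named, 3 were above the floor at each age, and all 6 summed to 3191 and 3753 units. Adipoq, adiponectin, lay below the floor at both ages. Among B and plasma cell markers, Ms4a1, Mzb1 and Cd79b were 2.85-, 2.45- and 2.03-fold higher. Of 14 granulocyte markers, 3 and 2 were above the floor. The 13 macrophage markers summed to 17588 and 17661 units. The part of these cells in the Saa3 value was not tested.

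In the jejunum, Lrg1 went from 190 to 390 units, 2.05-fold higher, the 1 of 4 measured genes past the threshold, against 0.235% of 12337 genes measured, and 0 were lower, against 0.989%. This call lay at the threshold and was lost under 3 scaling or offset choices, each with a log2 ratio of 0.98. Serpina3n went from 188 to 203 units, a ratio of 0.11. Saa3 went from 98.9 to 113 units and Hp from 92.6 to 113 units. Both were below the floor at 4 months, so their ratios of 0.04 and 0.03 are lower bounds, and with the floor at percentile 25 they were 0.20 and 0.28. Mzb1, of plasma cells, was 2.33-fold higher and Cldn4, a tight junction gene, 2.12-fold lower. Lcn2 stayed below the floor at both ages, at 98.4 and 107 units.

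Lrg1 and Serpina3n were the members above the floor in every tissue at both ages. Lrg1 had ratios of 1.15 in liver, 1.25 in spleen, 1.04 in jejunum, 0.64 in ileum and 0.64 in distal colon. Serpina3n had ratios of 0.75, 0.18, 0.11, 0.58 and 0.84 in the same order. Both genes were brightest in liver, Lrg1 by 16.9-fold over the spleen at 4 months and by 15.7-fold at 28 months. Below the liver, the Lrg1 signals of the 3 gut segments at 4 months lay between 175 and 193 units, a span without a replicate to set it against.

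Orm1 and Hpx were liver genes at both ages. At 4 months Orm1 was at least 84.7-fold and Hpx at least 241-fold above any other tissue, and at 28 months at least 189- and 320-fold. Hp was 79.8-fold above the spleen at 4 months and 35.8-fold at 28 months. Orm2 was at least 1.81-fold above the other tissues at 4 months and at least 33.9-fold at 28 months.

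Genes with the most similar profile over the 10 arrays were sought by Pearson correlation of floored log2 signal among 10132 other genes reaching 4 floors. Orm1, Orm2 and Hpx were above the floor in liver alone, so all their other arrays hold the same value. Their r therefore rests on the liver arrays, and many genes above the floor in liver alone reach a high r with Orm1 and Hpx for that reason. The 10 points are 5 tissues at 2 ages, and they share their tissues, so r is a description only. For Hpx, 419 genes reached r = 0.95 or more, and for Orm1 399 (led by Slc26a1, Serpina7 and Colec11 for Hpx, and by Acnat2, B3galt1 and Ropn1l for Orm1, each at r = 1.00). The number was 331 for Serpina3n (C2cd2, Pigk and Rpp40 first), 129 for Hp (Gm4951, B830008H07Rik and Tfr2 first) and 98 for Lrg1 (Ddx28, Pigk and Zfand4 first). Serpina3n, Hp and Lrg1 were also brightest in liver, at 4 months by 11.5-, 79.8- and 16.9-fold over the next tissue. The contrast of liver with the rest thus weighs heavily in their r as well. Orm2 had 4 such genes, led by Nnmt, nicotinamide N-methyltransferase (r = 0.99), Hsf2bp (r = 0.98) and Ntrk2 (r = 0.96). In liver Nnmt went from 117 to 1089 units. The closest to Lcn2 was Prtn3 (r = 0.96), followed by Ifi27 (r = 0.90) and Il18bp (r = 0.90). For Saa2 the closest were Ppl (r = 0.94), Npr2 (r = 0.93) and Atraid (r = 0.92), for Saa1 they were Vps41 (r = 0.93), Sqor (r = 0.92) and Ginm1 (r = 0.90), and 0 genes reached 0.95 for either. For Saa3 they were Itgb1 (r = 0.95), Hsd3b3 (r = 0.95) and Eif4ebp1 (r = 0.93). Saa1 and Saa2 correlated with each other at r = 0.89.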

How the data were processed

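Each array's file, as deposited by the authors, gives a log2 signal for every probe set. The submitters' processing notes name MAS5 and affy without version or role, and how arrays were normalised is not stated. The base was taken from the range of the deposited values, 2.71 to 14.8. After conversion to linear signals, every array was scaled to a mean of 500 after trimming 2% at each end, with factors from 2.42 to 2.57. The floor was the median of all signals, which 48.9% to 50.9% of an array's probe sets exceeded. The annotation gave 1 gene for 34958 probe sets, several for 932, and did not list 9211. A gene was represented by the probe set with the highest mean log2 signal. The ratio was 28 over 4 months within a tissue, and no p-value was computed.

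The members and the 14 lists were chosen with earlier results of these data known. The rule for naming took all members, list genes past 2-fold in a tissue described, up to 4 more per list with the largest liver ratios in size, and the 3 genes nearest each member. In the cell marker lists that further choice was not made, and markers short of 2-fold were named after their values were seen. Others, such as Fga, Fgb, Fgg, Crp, Hamp, Alb, Il6, Il6ra, Il6st, Lrp1, Slc22a17, Clec4f, Orm3, Lct and Fabp6, were chosen after their values were seen. Promoters came from RefSeq, and gene names from the platform's annotation with synonyms from RefSeq. The code that applies the 2-fold rule was tested on simulated data, which bears on the code and not on the ratios. Python 3.11.15, numpy 2.4.6, pandas 2.3.3, statsmodels 0.14.6 and Biopython 1.88 were used. Detection calls were not used here.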

Additional observations from a re-analysis of the deposited data

Results flagged for a closer look

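Saa1 and Saa2 passed 2-fold in opposite directions in 2 tissues of the same mice. Saa1 had a log2 ratio of 2.65 in liver and of -1 in ileum, the latter at the threshold and short of it with equal medians (-0.97) and under quantile normalisation (-0.95). Saa2 had one of 4.13 in liver and of -1.24 in ileum, or -0.67 there with the floor at percentile 75. The shares of Saa1 and Saa2 in these signals cannot be told apart. With 1 array per tissue and age, the difference between the tissues was not tested.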

How the results depend on the processing

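In liver the count of 6 higher members ranged from 4 to 8 over 10 alternatives, and 0 were lower in each; the 4 without probe sets reading several transcripts reflect the loss of Saa2 and Lcn2. The spleen count of 3 became 1 at 3-fold, 2 with the floor at percentile 75 and without probe sets that can read several transcripts, where Lcn2 is dropped, and 4 with the floor at percentile 25, with 16 units added and no floor, and at 1.5-fold. The jejunum count of 1 became 0 with the floor at percentile 75, with 16 units added and no floor, under quantile normalisation, under lowess and at 3-fold. In the ileum the 2 lower genes became 1 with the floor at percentile 75, with equal medians, under quantile normalisation and without probe sets that can read several transcripts, and 0 at 3-fold. The 0 higher genes became 2 at 1.5-fold in ileum and 2 in distal colon. The 1 lower gene of the distal colon became 0 with the floor at percentile 75, where Saa3 was no longer measured, and without multi-transcript probe sets, which drops its probe set. Ratios of single members were counted under each alternative floor, scaling or probe set choice in which the member was still measured. Of these, 219 kept their side of 2-fold, 7 fell short of it, 2 passed it and 0 changed sign from a called value. Those that passed it were Saa3 in spleen, at 1.49 with the lower floor and 1.32 without a floor. Those that fell short were Saa1 and Saa2 in ileum, the latter at -0.67 with the higher floor, and Lrg1 in spleen (0.92) and jejunum. Called ratios that could no longer be taken are not in these counts. With the floor at percentile 75 they were Saa3 in distal colon and Lrg1 in jejunum. Without multi-transcript probe sets they were Saa2 in liver and ileum, Lcn2 in liver and spleen, and Saa3 in distal colon. The liver ratio of Lcn2 ranged from 4.28 to 5.69 and that of Orm2 from 2.96 to 4.28, both lowest with the floor at percentile 75. Over all genes the liver counts of 154 higher and 19 lower changed to 55 and 7 when the floor was raised, to 478 and 96 at 1.5-fold, and to 40 and 5 at 3-fold. No paired analysis was possible because each comparison, made within a tissue, holds a single pair of arrays; an age term over the 5 tissues, which came from the same mice, was not computed. The cause of these shifts was not tested beyond what each setting removes.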
